A study of Mus musculus with 14 samples.

Results

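The cytosolic ribosomal protein genes were examined in mouse retinal cells after knockdown of Bcor. They were chosen by symbol, as every gene whose name follows the pattern of the Rpl and Rps families, with the stalk genes Rplp0 to Rplp2 and with Rpsa, leaving out pseudogenes. This gave 76 genes, 46 of the large and 30 of the small subunit, out of 26307 genes in the count tables. Fau, Rack1 and Rps3a1 also encode proteins of the ribosome, but their symbols fall outside the pattern. They are given apart from the 76 genes.

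Newborn (P0) wild-type CD1 mice received plasmid at 1 µg/µl in the eye by electroporation. The plasmid was pSilencer-shBcor, which carries a short hairpin against Bcor (shBCOR), or the empty vector pSilencer-CAG-Venus (control). Cells carrying the green fluorescent marker were sorted at postnatal day 21, and sorts were pooled to 30000 to 70000 cells for each of 2 shBCOR and 2 control libraries. The labels do not say how many animals a pool held, so p-values refer to the spread among pools. Between 3.0 and 5.1 ng of total RNA was used per library, depleted of ribosomal RNA, with random primers and 15 PCR cycles. The shBCOR libraries held 3173927 and 4093380 counts, and the control libraries held 5107174 and 4973402.

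The cytosolic ribosome joins a small subunit, which reads the messenger RNA, to a large subunit, which forms the peptide bond. Each subunit is built in the nucleolus from ribosomal RNA and a set of proteins that are nearly all needed in a single copy per ribosome. Messages of ribosomal proteins usually begin at a cytosine followed by a run of pyrimidines, the 5′ terminal oligopyrimidine (TOP) tract, through which the kinase mTORC1 and the RNA-binding protein Larp1 control their translation. Rods, the main cell type of the mouse retina, use ribosomes to renew the opsin and other proteins of their outer segments.

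Bcor encodes the transcriptional corepressor that the hairpin targets. It had 0 and 13 counts in the shBCOR libraries, against 20 and 8 counts in the control libraries. All of them lay in 1 of its 6 RefSeq records. Its log2 fold change was −0.63 ± 2.40 (SE, edgeR adjusted p = 0.991), so the counts were too few to check the labels.

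The tables listed ribosomal protein genes very unevenly. Counts were given per RefSeq record, and the 76 genes had 121 records. The 57 genes with a single record held 99.7% of all ribosomal protein counts, and 56 of them had a count in some library. The 19 genes with several records held 0.258%, or 212 counts summed over the 4 libraries, and 9 of them had any count. Over all genes of the tables, 46.0% of those with a single record had counts, against 36.2% of those with several, which took 6.39% of all counts. How a read lying in several records, or aligning to several places, was treated is not given in the sources used here.

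In all, 48 ribosomal protein genes had counts in every library, 17 in some libraries, and 11 in none. The 11 genes listed at 0 were Rpl15, Rpl19, Rpl26, Rpl30, Rpl31, Rpl35a, Rpl38 and Rplp2 of the large subunit, and Rps21, Rps27a and Rps28 of the small. Of these, Rpl26 has a single record. These genes serve every cell, so they are said only to be listed at 0, and no level was read from that. By counting error alone, a count of 0 allows up to 3 counts per library, which was 0.945 and 0.733 CPM (counts scaled to a common library total) in the shBCOR libraries and 0.587 and 0.603 CPM in the control libraries. That limit does not cover reads left out because they lay in several records or aligned to several places.

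Ribosomal protein genes have many processed pseudogenes, near-identical copies elsewhere in the genome. The reference annotation held 318 symbols of the form gene-ps for 62 of the 76 genes, up to 24 for 1 gene. The 12 single-record genes with no such symbol had a median of 295 counts per library and held 45.6% of the ribosomal protein counts. The 20 genes with 1 or 2 symbols had a median of 60.1 counts, and the 25 with 3 or more had a median of 89.0. Gene length was not known for the spliced transcripts, so these medians describe counts, not abundance.

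**Figure D1:**
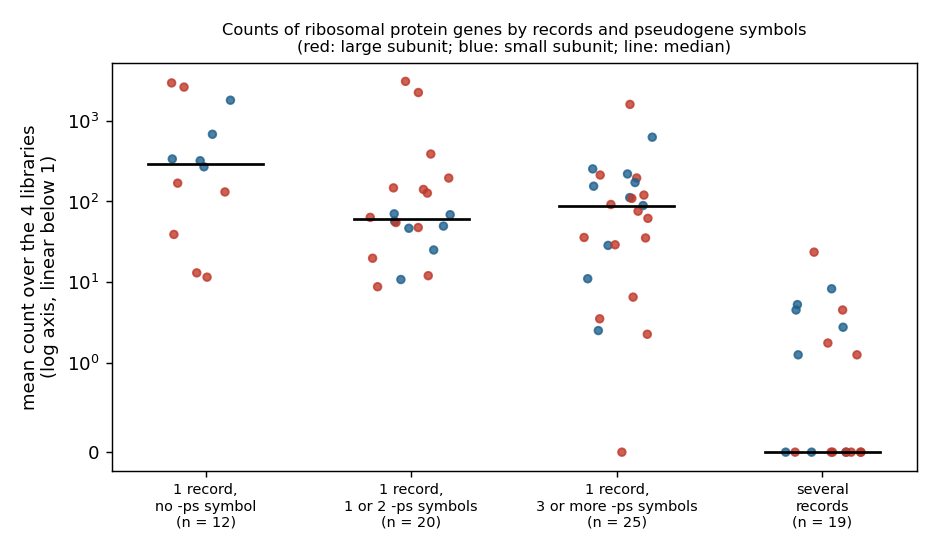
Mean count over the 4 libraries (log axis, linear below 1) of each of the 76 ribosomal protein genes, grouped by number of RefSeq records and of pseudogene symbols; red points are large-subunit and blue points small-subunit genes, and the line is the median. Genes with several records lay at or near 0, with a highest mean of 23.5 counts, while single-record genes reached 3093.

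A pseudogene with counts of its own could be set beside its parent for a few pairs. Rpl14-ps1 had 860 and 962 counts in the shBCOR libraries, against 1869 and 1703 in the control libraries, and its parent Rpl14 had 117 and 205 counts against 170 and 289. Rps6-ps4 had 637 and 512 counts in the shBCOR libraries, against 870 and 870 in the control libraries, while Rps6 had 90 and 92 against 81 and 93. In both pairs, chosen for their counts, the pseudogene was listed with more counts than the gene in every library. Rpl17-ps10 went the other way, with 0 and 13 counts in the shBCOR libraries, against 0 and 0 in the control libraries, while Rpl17 had 65 and 47 counts against 89 and 166. Neither pseudogene passed the test, with log2 fold changes of −0.31 ± 0.16 for Rpl14-ps1 (SE, edgeR adjusted p = 0.597) and 0.10 ± 0.25 for Rps6-ps4 (adjusted p = 0.983). How reads were shared between such copies was not tested, and the levels of genes that have them are given as uncertain.

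Genes also overlap on the genome. By annotated span, introns included, 40 of the 76 genes overlap another gene. Of the 76, 29 hold 58 snoRNA genes, the short guides of ribosomal RNA modification. Rpl4 holds 5 of them and Rpl13a holds 4. Genes other than snoRNAs overlap 21 of the 76, among them Rpl18, which shares 2536 bp with the sphingosine kinase gene Sphk2, and Rpl5, which shares 964 bp with Dipk1a. The kit was stranded, but the strand setting of the counting is not given in the sources used here. Overlap of exons was not computed, and how far reads of such neighbours entered the counts was not tested.

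As a group, ribosomal protein genes took a slightly smaller share of counts in shBCOR libraries. They had 14797 and 16311 counts in the shBCOR libraries, against 25780 and 25270 in the control libraries. Their share of all counts was 0.466% and 0.398% in the shBCOR libraries, against 0.505% and 0.508% in the control libraries. The means were 0.432 ± 0.0479% in shBCOR and 0.506 ± 0.00235% in control (SD, n = 2 each), a log2 ratio of −0.23, and the groups did not overlap. The 2 shBCOR libraries differed from each other by more than the nearer of them differed from the controls.

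The share depends on what else filled the libraries. After scaling by the trimmed mean of M-values (TMM), which corrects library sizes for a few abundant genes, the summed level was 5072 and 4158 TMM-scaled CPM in the shBCOR libraries, against 4772 and 4790 in the control libraries. The means were 4615 ± 647 in shBCOR and 4781 ± 13 in control (SD, n = 2 each), and the shBCOR libraries lay on either side of both controls. The log2 ratio of the sums was −0.06 on that scale. Without Rpl13a, the shares of counts were 0.416% and 0.369% in the shBCOR libraries, against 0.441% and 0.449% in the control libraries.

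The balance of the subunits did not separate the groups. Large-subunit genes had 11131 and 11627 counts in the shBCOR libraries, against 18932 and 18736 in the control libraries. Small-subunit genes had 3666 and 4684 counts in the shBCOR libraries, against 6848 and 6534 in the control libraries. The ratio of large to small was 3.04 and 2.48 in the shBCOR libraries, against 2.76 and 2.87 in the control libraries, so the shBCOR libraries again lay on either side of the controls. Their means were 2.76 ± 0.392 in shBCOR and 2.82 ± 0.0727 in control (SD, n = 2 each).

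**Figure D2:**
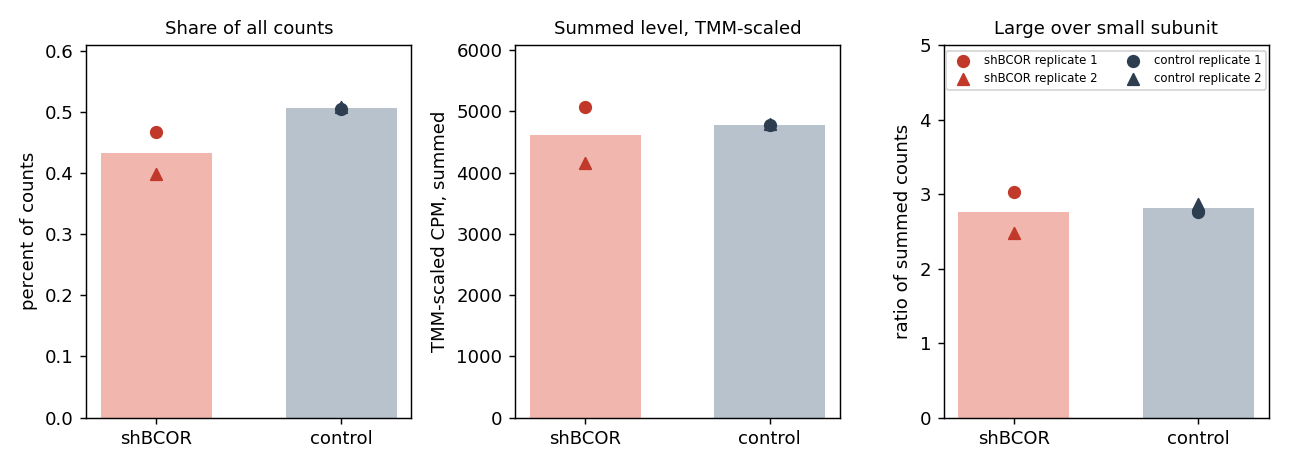
Summed values of the 76 ribosomal protein genes in each library, as a percent of all counts (left), as TMM-scaled CPM (middle) and as the ratio of large-subunit to small-subunit counts (right); bars are group means from 0 and points are libraries. The share of counts was lower in both shBCOR libraries, 0.466% and 0.398% against 0.505% and 0.508% in control, while the scaled sum and the ratio of the shBCOR libraries lay on either side of the controls.

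A few genes carried most of these sums. The 7 genes with the highest mean CPM were Rplp1, Rpl8, Rpl4, Rpl13a, Rps3, Rpl7 and Rps9. They took 76.9% and 70.4% of the ribosomal protein counts in the shBCOR libraries, against 73.1% and 72.6% in the control libraries. The sums above are thus mainly sums of these genes.

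Gene by gene, none of the ribosomal protein genes passed the test between shBCOR and control. Of the 76 genes, 53 had enough counts to be tested, 32 of the large and 21 of the small subunit, and 12 more had counts but fell under the filter, with at most 44 counts summed over the libraries. In edgeR's quasi-likelihood test, 0 of the 53 passed an adjusted p of 0.05, beside 7 of all 7775 genes tested (0.0900%), of which 0.0386% were higher and 0.0514% lower in shBCOR. At an unadjusted p of 0.05 there was 1, Rps15a, lower in shBCOR, beside 723 of all genes (9.30%), 4.19% higher and 5.11% lower. By DESeq2, Rps15a alone of the 53 passed at an adjusted p of 0.05, beside 473 of the 7624 genes with an adjusted p (6.20%), 2.92% higher and 3.28% lower. Of the 53, Rps19 and Rpl27 had no adjusted p by DESeq2.

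Non-overlap of the groups was no more frequent in value among ribosomal protein genes than among all genes. Both shBCOR values lay on the same side of both control values for 18 of the 53 genes, 34.0%, beside 41.9% of all genes tested. Of the 18, 6 were higher in shBCOR and 12 were lower, beside 18.6% of all genes higher and 23.2% lower. The difference between these shares was not tested.

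The median log2 fold change was −0.14 over the 53 genes, beside −0.01 over all genes tested. The fold change was above 0 for 18 of the 53 genes and below 0 for 35, beside 49.1% above and 50.9% below over all genes. Without shBCOR replicate 2 the order turned, to −0.10 over the ribosomal protein genes and −0.15 over all genes, and without shBCOR replicate 1 the medians were −0.15 and −0.11. With no filter on low counts they were −0.16 and −0.12. The median was −0.14 in the large subunit and −0.14 in the small. Among the 36 genes with a mean of 50 counts or more it was −0.12, with a range of −1.65 to 0.78, and among the 15 with 200 or more it was −0.01, with a range of −0.44 to 0.28.

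The spread between replicates was set beside these differences. For the 36 genes with a mean of 50 counts or more, the median absolute log2 ratio was 0.45 between the shBCOR replicates and 0.23 between the control replicates, against 0.24 between the groups. For the 15 genes with 200 or more it was 0.32 between the shBCOR replicates and 0.15 between the control replicates, against 0.14 between the groups. In value, the differences between the groups were smaller than those between the shBCOR pools and close to those between the control pools. These measures are unlike, since a fold between group means varies less than a ratio of single libraries.

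**Figure D3:**
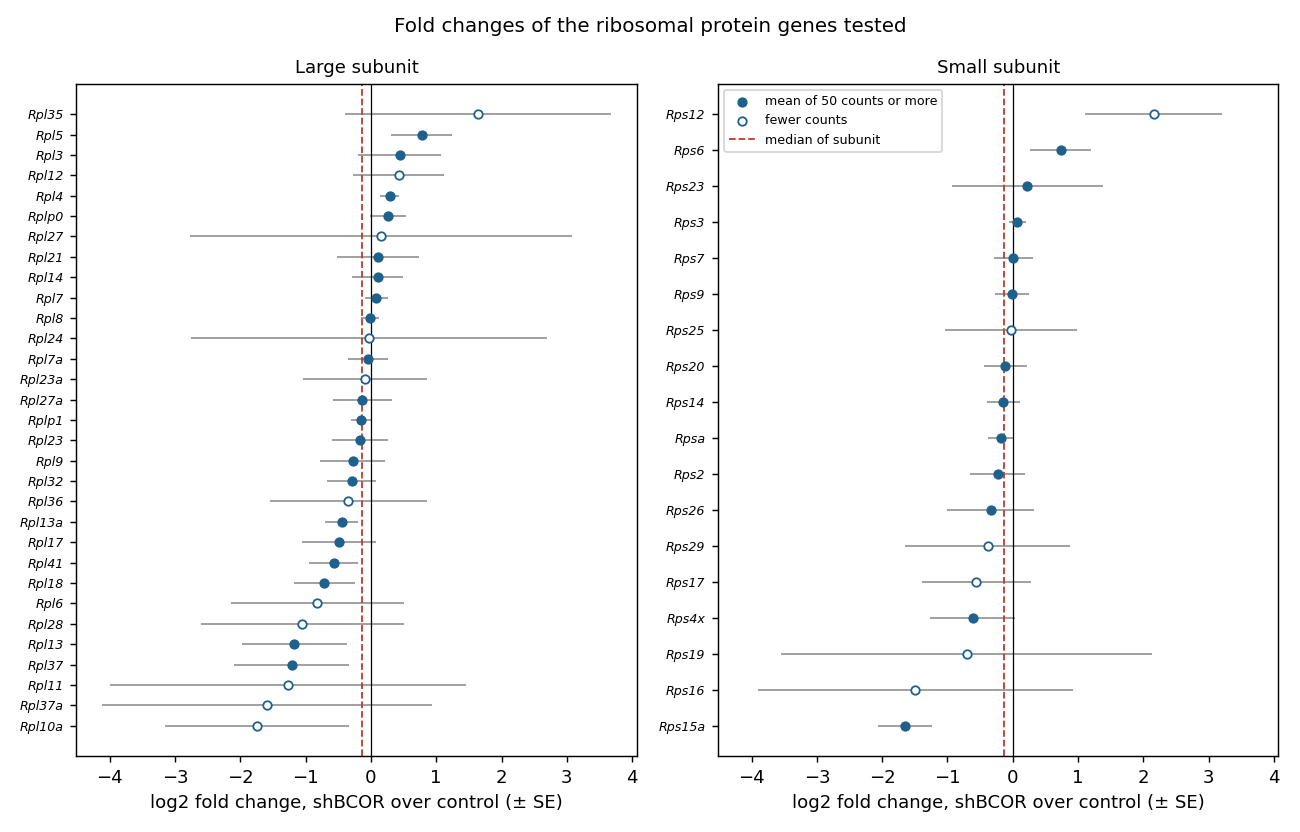
Log2 fold change of shBCOR over control (edgeR, bars are ± 1 SE) of 31 large-subunit and 18 small-subunit genes tested; filled points have a mean of 50 counts or more, open points fewer, and the dashed line is the median of all genes tested of the subunit. Both medians were −0.14, and wide bars belong to genes with few counts.

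Among all 7775 genes, the well-counted ribosomal protein genes lay near a log2 fold change of 0. Rps15a had the lowest fold change of the 36 genes with a mean of 50 counts or more, and Rps12 the highest of all 53.

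**Figure D4:**
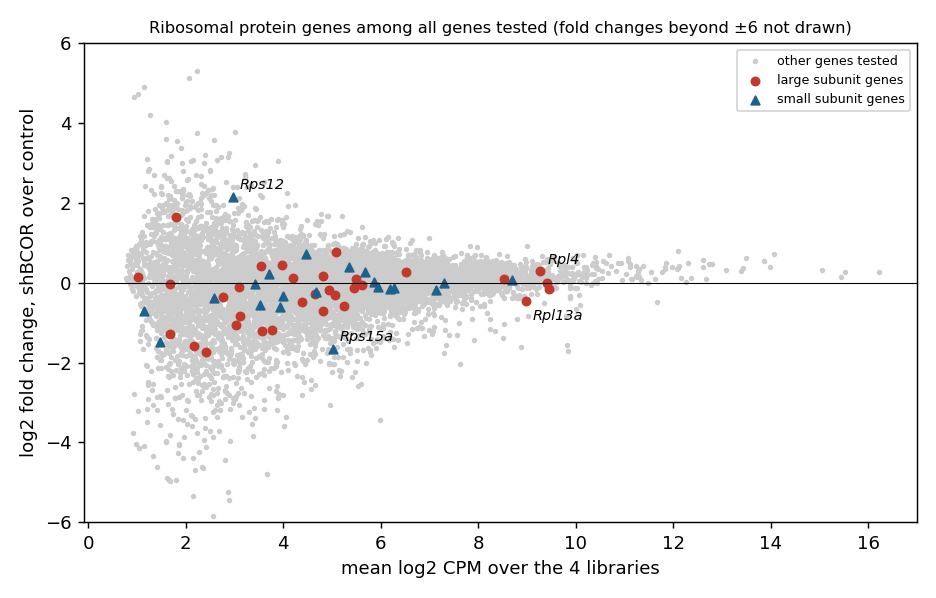
Log2 fold change of shBCOR over control against the mean log2 CPM of each gene tested; grey points are other genes, red circles large-subunit genes and blue triangles small-subunit genes. Ribosomal protein genes lay within the cloud of other genes, from Rps12 at 2.16 to Rpl10a at −1.75, and Rpl4 and Rpl13a lay at 0.28 and −0.44.

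The stalk of the large subunit, which recruits translation factors to the ribosome, is formed by Rplp0, Rplp1 and Rplp2. Rplp1 had 769 and 567 TMM-scaled CPM in the shBCOR libraries, against 712 and 769 in the control libraries, a log2 fold change of −0.15 ± 0.16 (SE, edgeR adjusted p = 0.892). Rplp0, which anchors the stalk, had 105 and 92.8 TMM-scaled CPM in the shBCOR libraries, against 64.6 and 101 in the control libraries, with 0.26 ± 0.28 (adjusted p = 0.892). The groups overlapped for both genes. Rplp2, with 3 records, was listed at 0 throughout.

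Rpl8 and Rpl3 encode proteins near the centre where the peptide bond forms, and neither gene passed the test. Rpl8 had 751 and 601 TMM-scaled CPM in the shBCOR libraries, against 707 and 656 in the control libraries. Its log2 fold change was −0.01 ± 0.14 (SE, edgeR adjusted p = 0.997), with a 95% interval of the fold of 0.787 to 1.25. Rpl3 had 20.2 and 14.8 TMM-scaled CPM in the shBCOR libraries, against 8.33 and 17.4 in the control libraries, a log2 fold change of 0.44 ± 0.63 (SE, edgeR adjusted p = 0.942). In both genes the groups overlapped, and Rpl3 rested on 45 to 92 counts per library. Its log2 fold change was 1.06 without control replicate 2 and −0.0025 without control replicate 1.

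Rpl4 lines the tunnel through which the new chain leaves. It had 752 and 604 TMM-scaled CPM in the shBCOR libraries, against 574 and 539 in the control libraries. Both shBCOR libraries were above both controls, and the log2 fold change was 0.28 ± 0.14 (SE, edgeR adjusted p = 0.597). Without shBCOR replicate 2 it was 0.42, and without shBCOR replicate 1 it was 0.12. Rpl7, another protein of the large subunit, had 434 and 330 TMM-scaled CPM in the shBCOR libraries, against 336 and 385 in the control libraries, a log2 fold change of 0.08 ± 0.17 (SE, edgeR adjusted p = 0.974), and its groups overlapped.

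Rpl13a, known in human monocytes for leaving the ribosome to silence inflammatory messages, went the other way in value. It had 551 and 302 TMM-scaled CPM in the shBCOR libraries, against 601 and 559 in the control libraries. Both shBCOR libraries lay below both controls, and replicate 2 was far below replicate 1. The log2 fold change was −0.44 ± 0.25 (SE, edgeR adjusted p = 0.643), and it rested on shBCOR replicate 2. Without that replicate it was −0.08, and without shBCOR replicate 1 it was −0.94.

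Rpl5 and Rpl11 bind the smallest ribosomal RNA of the large subunit, and free of the ribosome they inhibit the p53 ligase Mdm2. Rpl5 had 28.1 and 55.8 TMM-scaled CPM in the shBCOR libraries, against 29.6 and 19.5 in the control libraries. Its log2 fold change of 0.78 ± 0.47 (SE, edgeR adjusted p = 0.679) was the highest among genes with a mean of 50 counts or more, and the groups overlapped. It rested on shBCOR replicate 2, with 0.18 without that replicate, below Rps6 at 0.91, and 1.18 without shBCOR replicate 1. Rpl11 had 0 and 12 counts in the shBCOR libraries, against 0 and 40 in the control libraries, so each group held 1 library at 0.

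Several large-subunit genes had lower values in shBCOR without passing the test. Rpl41, the shortest protein of the ribosome, had 35 and 25 TMM-scaled CPM in the shBCOR libraries, against 45.7 and 43.2 in the control libraries, with a log2 fold change of −0.57 ± 0.37 (SE, edgeR adjusted p = 0.714). Rpl18 had 24.3 and 17.8 TMM-scaled CPM in the shBCOR libraries, against 24.6 and 44.4 in the control libraries, with −0.71 ± 0.47 (adjusted p = 0.726). In both, the shBCOR values were below both controls, by little in the case of Rpl18, whose overlap with Sphk2 was not resolved. Rpl13 had 11.3 and 4.84 TMM-scaled CPM in the shBCOR libraries, against 27.0 and 9.29 in the control libraries, with −1.17 ± 0.81 (adjusted p = 0.744). Rpl37 had 2.74 and 10.7 TMM-scaled CPM in the shBCOR libraries, against 20.7 and 10.8 in the control libraries, with −1.21 ± 0.88 (adjusted p = 0.752). The replicates of Rpl13 and Rpl37 differed by more than 2-fold in at least 1 group each, and their counts ran from 8 to 146 per library. Leaving out 1 library at a time gave −1.90 to −0.21 for Rpl13, −2.52 to −0.56 for Rpl37, −1.08 to −0.23 for Rpl18 and −0.83 to −0.36 for Rpl41. The value nearest 0 was without control replicate 1 for Rpl13, shBCOR replicate 1 for Rpl37, control replicate 2 for Rpl18 and shBCOR replicate 2 for Rpl41.

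Other large-subunit genes with a set role had too few counts to describe. Rpl10, which completes the subunit before it may translate, had 14 counts in 1 control library and 0 elsewhere. Rpl22, which in mice is needed by developing T cells, had 18 counts in the other control library and 0 elsewhere. Rpl24, which reaches across to the small subunit, had 16 and 0 counts in the shBCOR libraries, against 30 and 0 in the control libraries. Rpl38, through which mouse ribosomes favour messages of Hox genes, was listed at 0. Such patterns of 0 and 14 to 30 counts also occurred between replicates of a group, and no direction was read from them.

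**Figure D5:**
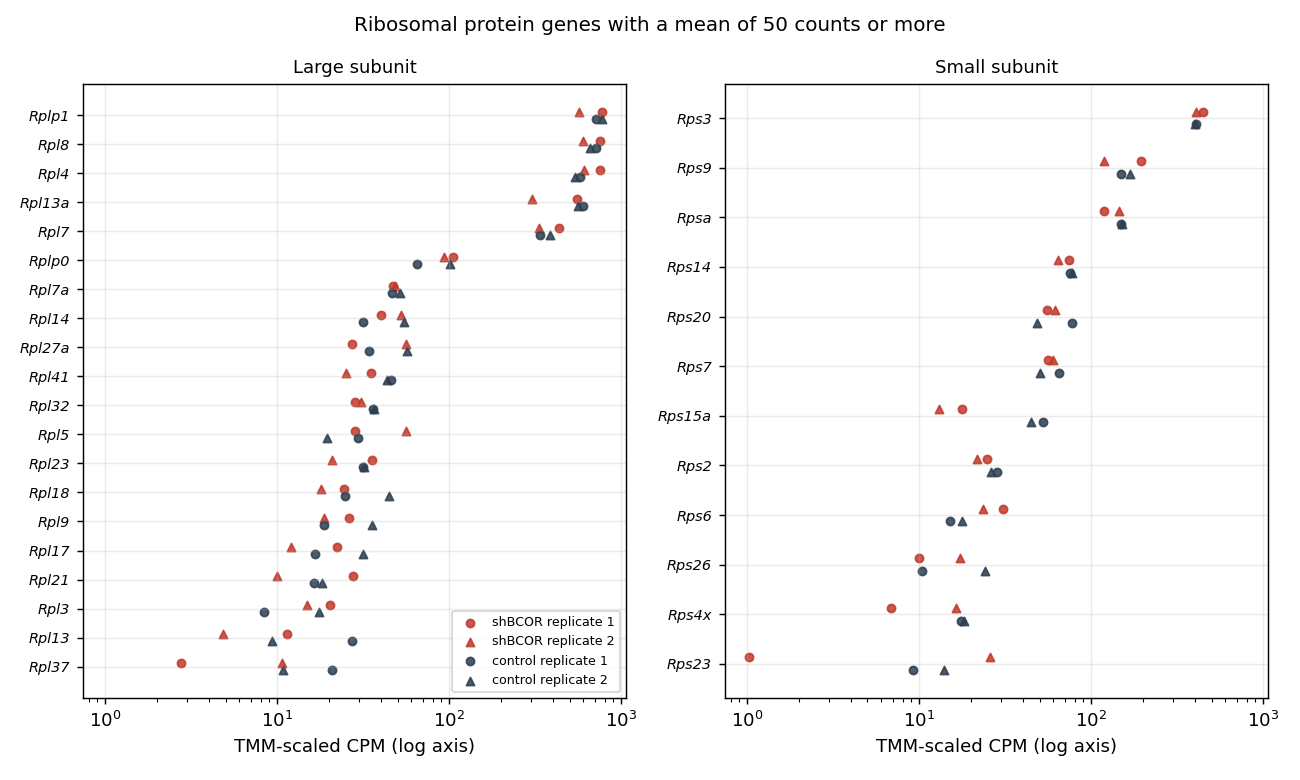
TMM-scaled CPM (log axis) in each library of 20 large-subunit and 12 small-subunit genes with a mean of 50 counts or more, ordered by mean; red marks are shBCOR and dark marks control libraries, circles replicate 1 and triangles replicate 2. The groups overlapped for most genes, and Rps15a was the gene with the widest gap between groups, at 17.8 and 13 in shBCOR against 52.2 and 44.4 in control.

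In the small subunit, Rps15a had the largest gap between the groups among genes with a mean of 50 counts or more. It had 52 and 51 counts in the shBCOR libraries, against 282 and 234 in the control libraries, or 17.8 and 13 TMM-scaled CPM against 52.2 and 44.4. Both shBCOR libraries were far below both controls, and replicates lay close together. The log2 fold change was −1.65 ± 0.41 (SE, edgeR adjusted p = 0.221), a 3.14-fold lower level in shBCOR, with a 95% interval of 0.165 to 0.616 of the control level. This p-value did not pass over all genes.

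The call of Rps15a turned on the test. By DESeq2 the adjusted p was 0.000965, and by edgeR without the filter on low counts it was 0.0412. Over all alternatives it ran from 0.000965 to 1.00, while the log2 fold change ran from −1.89 to −1.45. Rps15a has 8 pseudogene symbols, of which 2 were listed in the tables. Rps15a-ps4 had 12 and 47 counts in the shBCOR libraries, against 24 and 14 in the control libraries, and Rps15a-ps6 had 0 and 0 against 0 and 23. The other 6 were not listed, and the part of pseudogenes in the difference of Rps15a was not tested.

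At the path of the messenger RNA, Rps3 was close in both groups. It guards the entry of the message and also takes part in DNA repair. It had 447 and 404 TMM-scaled CPM in the shBCOR libraries, against 408 and 403 in the control libraries, with a log2 fold change of 0.07 ± 0.13 (SE, edgeR adjusted p = 0.972) and a 95% interval of the fold of 0.847 to 1.30. The groups overlapped for Rps3.

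Rps9, Rpsa and Rps14 also showed little difference. Rps9 had 195 and 119 TMM-scaled CPM in the shBCOR libraries, against 149 and 168 in the control libraries, with a log2 fold change of −0.01 ± 0.26 (SE, edgeR adjusted p = 0.999). Rpsa, also known as a laminin receptor, had 119 and 144 TMM-scaled CPM in the shBCOR libraries, against 148 and 151 in the control libraries, with −0.18 ± 0.20 (adjusted p = 0.892). Rps14, whose loss in humans is linked to a form of myelodysplasia, had 74.4 and 63.7 TMM-scaled CPM in the shBCOR libraries, against 75.3 and 77.1 in the control libraries, with −0.14 ± 0.26 (adjusted p = 0.967). The shBCOR values of Rpsa and Rps14 lay below both controls, and the replicates of Rps9 straddled them.

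Rps6, the protein phosphorylated by the S6 kinases downstream of mTORC1, had 30.9 and 23.5 TMM-scaled CPM in the shBCOR libraries, against 15.0 and 17.6 in the control libraries. Both shBCOR values were above both controls, and the log2 fold change was 0.73 ± 0.47 (SE, edgeR adjusted p = 0.704). Rps12 had 30 and 55 counts in the shBCOR libraries, against 20 and 9 in the control libraries, with a log2 fold change of 2.16 ± 1.06 (SE, edgeR adjusted p = 0.582). The 95% interval of the Rps12 fold ran from 0.817 to 24.4, and the annotation held 23 pseudogene symbols of it.

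The remaining small-subunit genes with a set role rested on few counts. Rps4x, on the X chromosome, had 6.86 and 16.3 TMM-scaled CPM in the shBCOR libraries, against 17.4 and 18.2 in the control libraries, with a log2 fold change of −0.61 ± 0.65 (SE, edgeR adjusted p = 0.891). Its shBCOR replicates differed more from each other than replicate 2 did from the controls, and its log2 fold change was −0.12 without shBCOR replicate 1 and −1.38 without shBCOR replicate 2. Rps19, the gene most often mutated in human Diamond-Blackfan anaemia, had 9 records and 0 and 10 counts in the shBCOR libraries, against 23 and 0 in the control libraries. Rps27a, made as a fusion with ubiquitin, was listed at 0.

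Of further genes with a mean of 50 counts or more, Rpl17 was at a log2 fold change of −0.49 ± 0.57 (SE, edgeR adjusted p = 0.897). Rpl32 and Rps2 had both shBCOR values below both controls. Rpl32 had 28.5 and 30.6 TMM-scaled CPM in the shBCOR libraries, against 35.9 and 36.6 in the control libraries, and Rps2 had 24.7 and 21.7 against 28.1 and 26.2. The differences of Rpl32 and Rps2 from control were smaller than their SE, at −0.30 ± 0.37 and −0.23 ± 0.42. Rps7 and Rpl7a were near 0, at 0.01 ± 0.30 and −0.05 ± 0.31.

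A few genes showed how far pools of the same group could lie apart. Rps23 had 3 and 101 counts in the shBCOR libraries, against 50 and 73 in the control libraries. Rpl6 had 1 and 44 counts in the shBCOR libraries, against 61 and 50 in the control libraries. Rpl28 had 27 and 3 counts in the shBCOR libraries, against 105 and 6 in the control libraries. In Rps23 and Rpl6 the low value was that of shBCOR replicate 1, while Rpl28 was low in replicate 2 of both groups, and no direction was read from the 3 genes.

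The start sites of the genes with the smallest p-values in each direction are shown, since the TOP tract that marks this gene class lies there. Each line gives 40 bases of RefSeq promoter sequence on GRCm38.p6, from 30 bases before to 10 bases after the annotated start, read on the strand of the gene. Capitals mark a cytosine followed by at least 4 pyrimidines that begins within 5 bases of the start. Rps12, Rpl4, Rpl5 and Rps6 had higher values in shBCOR, and Rps15a, Rpl13a, Rpl41, Rpl18 and Rpl13 had lower ones.
Rps12: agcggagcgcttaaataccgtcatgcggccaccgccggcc
Rpl4: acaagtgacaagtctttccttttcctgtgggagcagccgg
Rpl5: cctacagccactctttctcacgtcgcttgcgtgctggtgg
Rps6: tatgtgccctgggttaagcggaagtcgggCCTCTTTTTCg
Rps15a: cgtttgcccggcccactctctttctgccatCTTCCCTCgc
Rpl13a: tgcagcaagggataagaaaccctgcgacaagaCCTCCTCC
Rpl41: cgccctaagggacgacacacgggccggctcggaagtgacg
Rpl18: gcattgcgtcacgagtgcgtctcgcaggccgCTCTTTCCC
Rpl13: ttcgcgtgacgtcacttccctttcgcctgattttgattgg

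These stretches lie at chr10:23787200-23787239 on the minus strand for Rps12, chr9:64173357-64173396 on the plus strand for Rpl4, chr5:107900498-107900537 on the plus strand for Rpl5 and chr4:86857358-86857397 on the minus strand for Rps6. Those of the genes with lower values lie at chr7:118116138-118116177 on the minus strand for Rps15a, chr7:45128736-45128775 on the minus strand for Rpl13a and chr10:128549159-128549198 on the minus strand for Rpl41. Rpl18 follows at chr7:45718041-45718080 and Rpl13 at chr8:123102320-123102359, both on the plus strand. A tract was found for Rps6, Rps15a, Rpl13a and Rpl18, on both sides of 0 in fold change. Its first base was the first base of the Rps15a start, and it began 1 base upstream for Rps6. Runs of pyrimidines that begin further upstream, as in the stretches of Rpl4, Rpl5 and Rpl13, were not marked. Whether messages in these cells begin at the annotated start was not tested, so an unmarked gene is not said to lack a TOP tract.

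Over the 56 ribosomal protein genes with a RefSeq promoter, 29 of 66 promoters (43.9%) held such a tract, beside 18.3% of all 32851 promoters. A tract that begins exactly at the start was found in 19.7% of the ribosomal protein promoters, beside 2.51% of all. The sequence CCGGAAG, the core of sites of ETS factors, lay on either strand of the 300-base promoters in 36.4%, beside 8.86% of all. AAGATGGC, the core of sites of YY1, was found in 10.6%, beside 2.75% of all. The TATA box, searched as TATAAA, was found in 9.09%, beside 13.6% of all. The tract was found near the annotated start in 16 of 34 large-subunit and 11 of 22 small-subunit genes.

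The fold changes of the classes overlapped widely. The 14 tested genes with a tract near the annotated start had a median log2 fold change of −0.09, with a range of −1.65 to 1.64. The 22 without a tract there had −0.23, with a range of −1.75 to 2.16. The 12 with CCGGAAG had a median of −0.21, and the 24 without had −0.11. Rps15a and Rpl13a were the 2 tested genes with AAGATGGC, with a median of −1.05, and the 34 without had −0.15. No test was made between these classes, and a match to a short sequence does not show binding.

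Proteins of the ribosome that the symbol rule missed were also measured. Rack1, a scaffold on the small subunit, had 295 and 330 TMM-scaled CPM in the shBCOR libraries, against 334 and 325 in the control libraries, with a log2 fold change of −0.07 ± 0.14 (SE, edgeR adjusted p = 0.972). Rps3a1 had 17.1 and 38.5 TMM-scaled CPM in the shBCOR libraries, against 56.8 and 67.3 in the control libraries, with −1.15 ± 0.44 (adjusted p = 0.472). The groups did not overlap for Rps3a1, and neither gene passed the test. Fau had 0 and 0 counts in the shBCOR libraries, against 0 and 12 in the control libraries, and was not tested. Of 10 ribosomal protein paralogs, 9 were in the tables and 3 were tested, with 0 calls.

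Genes that act with the ribosome were likewise not called by edgeR. Of the elongation factors, 10 were tested, with a median log2 fold change of −0.02 beside −0.01 over all genes. Eef1a2, the form of the factor that brings aminoacyl-tRNA to the ribosome in neurons and muscle, had 274 and 213 TMM-scaled CPM in the shBCOR libraries, against 492 and 494 in the control libraries. Its log2 fold change of −1.02 ± 0.16 had the smallest p of the list (SE, edgeR adjusted p = 0.0804), and DESeq2 called 1 of the 10 genes, beside 6.20% of all genes. Eef1a1, the widespread form, had 1169 and 1056 TMM-scaled CPM in the shBCOR libraries, against 909 and 1009 in the control libraries, with 0.21 ± 0.12 (adjusted p = 0.620). The 2 forms thus lay on opposite sides of their controls, and the difference between them was not tested.

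Among 29 initiation factors the median log2 fold change was 0.03, with 15 genes above 0 and 14 below. Eif3c and Eif3m, subunits of the complex that loads the small subunit onto messages, had the smallest p-values, with 0.33 ± 0.12 and 1.00 ± 0.36 (SE, edgeR adjusted p = 0.440 for each). Among 40 ribosome biogenesis genes the median was 0.10, with 26 above 0 and 14 below. The nucleolar helicase Ddx21 had 276 and 274 TMM-scaled CPM in the shBCOR libraries, against 199 and 160 in the control libraries, with 0.62 ± 0.17 (adjusted p = 0.292), and Wdr43, a processing factor of the small subunit, had 0.59 ± 0.21 (adjusted p = 0.411). At an unadjusted p of 0.05 the biogenesis list held 2 higher and 2 lower genes of 40, beside 9.30% of all genes in either direction, and DESeq2 called 2, beside 6.20% of all genes.

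The other lists of the pathway were also without calls by edgeR. Of the snoRNA host genes, 13 were tested with a median log2 fold change of −0.49, led by Snhg14 at −1.23 ± 0.63 (SE, edgeR adjusted p = 0.599) and Cct6a at 0.19 ± 0.13 (adjusted p = 0.722). Of the mTORC1 and ribosomal S6 kinase genes, 12 were tested with a median of −0.28, led by the kinase gene Rps6ka2 at 0.42 ± 0.17 (adjusted p = 0.490) and Mtor at 0.26 ± 0.15 (adjusted p = 0.634). Of 78 mitochondrial ribosomal proteins, 56 were tested with a median of −0.14, which equals that of the cytosolic proteins to 2 decimals. Mrpl18 at −0.75 ± 0.26 (adjusted p = 0.406) and Mrpl24 at −0.94 ± 0.34 (adjusted p = 0.428) had the smallest p-values there.

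Marker levels of cell types differed in value between the groups, and in bulk libraries fewer cells of a type and less RNA per cell cannot be told apart. Of 25 rod markers, 22 were tested and 22 had a log2 fold change above 0, beside 49.1% of all genes, with a median of 0.32. By edgeR 1 passed, Rp1, beside 0.0386% of all genes called higher, and DESeq2 called 15, beside 2.92%. Their summed level was 322489 and 281923 TMM-scaled CPM in the shBCOR libraries, against 239392 and 240405 in the control libraries. The 15 tested bipolar cell markers had a median of −0.62, with summed levels of 1288 and 2037 against 2543 and 2404. The 11 tested markers of Müller glia had a median of −0.43, with 3 above 0 and 8 below. Their summed levels were 3831 and 4674 in shBCOR against 5539 and 5385 in control. Glul alone made up 2392 and 3073 of these sums in shBCOR, against 3846 and 3738 in control. The summed level of rod markers was thus higher, and the sums of both other lists lower, in both shBCOR libraries. Single markers did not all follow their list, such as the rod gene Cngb1, at 3211 and 2492 TMM-scaled CPM in shBCOR against 2813 and 2880 in control, and the bipolar gene Trpm1, at 182 and 536 against 513 and 423.

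Over 12 tested ganglion and horizontal cell markers the median log2 fold change was −1.45, with 11 below 0. By edgeR 1 passed, Nefm, beside 0.0514% of all genes called lower. Their summed levels were 795 and 474 TMM-scaled CPM in the shBCOR libraries, against 1995 and 1936 in the control libraries. Nefl alone made up 574 and 284 of these sums in shBCOR, against 1419 and 1388 in control. Rbpms and Slc17a6 of that list were at 0. The 8 tested amacrine markers had a median of −1.99, with 3 above 0 and 5 below. Their summed levels were 42.5 and 39.8 in shBCOR against 133 and 145 in control. Tfap2a, Pax6 and Calb2 of that list were at 0. The 10 tested cone markers had a median of −0.19, with 4 above 0 and 6 below. The summed levels of the cone list were 3850 and 3189 in shBCOR against 2980 and 2847 in control. Kcnv2 alone made up 2702 and 2420 of these sums in shBCOR, against 1776 and 1741 in control, so the cone sum was mainly that of Kcnv2. The 3 tested markers of microglia had a median of −1.13, with summed levels of 4.46 and 7.14 in shBCOR against 20.9 and 22.2 in control. Of 10 vessel and pericyte markers 6 were at 0 and 4 were tested, with a median of −0.09, 1 above 0 and 3 below. Summed levels over the list were 2585 and 2107 in shBCOR against 1905 and 1858 in control. Most of these sums came from Vtn, the 1 gene above 0, with 2206 and 1673 in shBCOR against 1456 and 1418 in control. None of 8 pigment epithelium markers was tested, and all 7 red blood cell markers were at 0. The part of these cell types in the values of the ribosomal protein genes was not tested.

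Gene span went with the fold change as well. Of the 53 ribosomal protein genes tested, 52 lay in the shortest of 4 equal classes of gene span, at up to 9046 bp. The median log2 fold change of all genes in that class was −0.11, and that of its ribosomal protein genes was −0.13. In the 3 longer classes the medians over all genes were −0.03, 0.04 and 0.03. Rps15a, with a span of 11774 bp, was the 1 ribosomal protein gene outside the shortest class. With an offset for gene span, chosen after seeing the data, the median was 0.08 over the ribosomal protein genes and 0.08 over all genes, while Rps15a was at −1.54. Since this offset was fitted to these same values, the nearness of the medians after it is no test of gene span. The part of gene span in the fold changes was not tested.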

How the data were processed

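The values analysed were the authors' raw counts per RefSeq record, as deposited. The submitters' processing notes name HTSeq, Trimmomatic, TopHat and DESeq2 and the builds mm10 and mm9, without roles. Whether counting used strand, and how reads with several alignments were treated, is not given in the sources used here. Records were matched to symbols through the RefSeq gene table of GRCm38.p6 (45749 of 45895, 99.7%) and summed per gene. Unmatched records, nearly all in NR_046233, took 0.313 to 0.591% of the counts and were kept under their own identifiers. The 4 libraries were grouped and numbered by their titles, though the deposited table of shBCOR replicate 2 carries the number 3, and the peak lists of the series were not used here.

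The test of each gene was that of edgeR 4.0.16, run in R 4.3.3 (filterByExpr by group, TMM, robust quasi-likelihood F test, shBCOR over control), with Benjamini-Hochberg adjustment over all 7775 genes. The biological coefficient of variation was 0.545. SE is the log2 fold change divided by the square root of F. DESeq2 1.42.0 was an alternative. The scripts were tested on simulated data. Replicates were separate libraries by their counts: over the 53 genes tested, chi-square divided by its degrees of freedom was 14.4 between the shBCOR and 15.7 between the control replicates. Intervals and floors cover 95% and, for floors, counting error only.

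The members, gene lists and rules were chosen with earlier results of these data known. Named were the 10 members of highest mean CPM, the 5 of smallest p and the 5 of most extreme fold at 50 counts or more in each direction, 16 of set roles, and of other lists the called genes or the 2 of smallest p. Eef1a1, Rps3a1, the pseudogenes and Rpl17, Rpl32, Rps2, Rps7, Rpl7a, Rps23, Rpl6 and Rpl28 were chosen after their values were seen. Among the cell type markers, so were Kcnv2, Vtn, Nefl and Glul. Some genes are not reported here or drawn by name.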

Additional observations from a re-analysis of the deposited data

How the results depend on the processing

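The alternatives were other scalings, DESeq2, other filters, records tested singly, single-record genes, equal depth, the replicate block, an offset for gene span and leaving out each library. Of the named genes' values, 313 kept direction and side of the threshold, 5 gained a call (those of Rps15a, Rpl4 and Rpl13a) and 23 changed sign. The number of all genes called, 7 (3 higher, 4 lower), was 29 (3 higher, 26 lower) with library totals alone, 473 by DESeq2, 205 with no filter, 30 among single-record genes, 4 at equal depth and 4 to 525 without 1 library. Ribosomal protein genes called, 0, were 1 by DESeq2 and 1 with no filter, both Rps15a, and 0 to 2 without 1 library: Rpl13a and Rps15a without shBCOR replicate 1, and Rpl4 without shBCOR replicate 2. Their median log2 fold change of −0.14 was −0.32 with library totals, which put the median of all genes at −0.19, 0.080 with the span offset, and −0.17 to −0.10 without 1 library. The large minus small median of −0.00069 ran from −0.34 without shBCOR replicate 1 to 0.095 without shBCOR replicate 2. The number of ribosomal protein genes whose groups did not overlap, 18, was 17 with upper quartile scaling, 19 with no filter and 22 with library totals. Without 1 library it was 34 to 38, since fewer samples overlap less often. The log2 ratio of the summed share, −0.23, was −0.058 as TMM-scaled CPM. With the replicate block, 23 genes passed, 0 of them ribosomal, and their median was −0.16. The replicate differences of the groups correlated at −0.01 over all genes and 0.07 over the ribosomal protein genes, so the numbers were not taken to pair the pools, and both values rest on the titles' numbering. Library totals turned Rps3 to −0.11 and Rpl7 to −0.10, and equal depth turned Rpl8 to 0.0019 and Rps9 to 0.030. The span offset turned Rplp1 to 0.12, Rpl8 to 0.21, Rps9 to 0.19, Rpsa to 0.0055, Rpl24 to 0.10 and Rps14 to 0.047. Without 1 library, log2 fold changes ran from −6.58 to 0.34 for Bcor, −0.38 to 0.045 for Rplp1, −0.18 to 0.13 for Rpl8, −0.12 to 0.26 for Rpl7, −0.033 to 0.61 for Rplp0 and −0.0025 to 1.06 for Rpl3. They ran from −0.0051 to 0.13 for Rps3, −0.41 to 0.29 for Rps9, −6.77 to 6.48 for Rpl24 and −6.30 to 0.25 for Rps19. In these fits the lone sample of a group was assumed to vary like the other group. The cause of these changes was not tested. The planned offset for coding length, alone and with the block, was not run, since no coding lengths were used here.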
